A study of Mus musculus with 8 samples.

Results

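The genes described here encode the nuclear subunits of the 5 oxidative phosphorylation complexes of the inner mitochondrial membrane, with the assembly factors that share their names. They were taken by name: every gene whose symbol begins with Nduf, Uqcr, Cox4, Cox5, Cox6, Cox7, Cox8 or Atp5, together with Sdha, Sdhb, Sdhc, Sdhd and Cyc1, leaving out symbols that end in -ps or -rs. That gave 93 of the 24411 genes in the files, and no measured value was used to choose them. Sorted by complex they were 36 subunits of complex I, 4 of complex II, 9 of complex III, 19 of complex IV and 15 of ATP synthase, and 10 assembly or other factors. In all, 87 had enough counts to be tested, among 12517 tested genes. The 6 that did not were Cox4i2, Cox7b2, Cox8b and Cox8c, each with 0 counts in all 8 libraries, and Cox6a2 and Cox6b2, with at most 3 and 4 counts in a library.

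Polyadenylated RNA came from A223, a mouse squamous cell carcinoma line, in 4 groups of 2 replicate libraries: parental cells or cells with a knockdown of PRDX6 (KD), each with DMSO at 0 h or with 100 nM largazole at 18 h. Largazole is a natural-product inhibitor of class I histone deacetylases, and PRDX6 is a peroxiredoxin that reduces peroxides, those of phospholipids included. The drug and the 18 h of culture cannot be told apart, since no group had DMSO at 18 h. How the knockdown was made, whether KD cells were 1 clone, and whether replicates were separate cultures are not stated in the labels. The p-values therefore rest on differences between libraries of a group that may be technical. No non-targeting control was analysed here. In bulk RNA, fewer cells that use a gene and less of its RNA per cell cannot be told apart.

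Complexes I and II pass electrons from NADH and succinate to ubiquinone, complex III passes them to cytochrome c, and complex IV passes them to oxygen. Complexes I, III and IV pump protons, and ATP synthase uses the gradient to make ATP. Complex I, complex III, complex IV and ATP synthase combine nuclear-encoded subunits with subunits from mitochondrial DNA, whereas all subunits of complex II are nuclear. The mitochondrially encoded subunits were not analysed here. Promoters of these genes are known for sites of the nuclear respiratory factor NRF1, of ETS-family factors such as GABP, and of YY1.

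RefSeq's promoter table (GRCm38.p6, from 250 bases before to 50 bases after each gene's start) held 76 of the 93 genes and 17492 genes in all. Exact letters were searched on both strands. The NRF1 core, which is GCGCATGC followed by GC and reads the same on both strands, was in 9.21% of the promoters of these genes and in 1.47% of all promoters. The letters GCGCATGC alone, which every core also holds, were in 15.8% against 3.94%. The YY1 letters AAGATGGCG were in 10.5% against 2.14%, the ETS core CCGGAAG in 22.4% against 12.9%, and CCAAT in 44.7% against 42.3%. These matches are letters in a window, not measured binding. Of the 9 genes described below by their levels in every library, Ndufb9, Sdhc and Ndufa4l2 had no RefSeq promoter here. Atp5d, Cox7a2l and Ndufaf7 had a promoter without a match to any letters searched. Parts of 3 promoters are shown, those of Ndufv3, Ndufb6 and Cox7a1, because these are the genes among the 9 with a match. Each is printed from the gene's own strand without annotated exon sequence, with capitals for CCAAT (read as ATTGG on the other strand) in Ndufv3 and Cox7a1 and for the ETS core (read as CTTCCGG) in Ndufb6.
Ndufv3, chr17:31519981-31520114, plus strand: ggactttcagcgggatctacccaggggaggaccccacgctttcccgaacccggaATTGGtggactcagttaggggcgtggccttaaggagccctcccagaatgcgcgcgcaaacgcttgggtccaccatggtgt
Ndufb6, chr4:40279422-40279671, minus strand: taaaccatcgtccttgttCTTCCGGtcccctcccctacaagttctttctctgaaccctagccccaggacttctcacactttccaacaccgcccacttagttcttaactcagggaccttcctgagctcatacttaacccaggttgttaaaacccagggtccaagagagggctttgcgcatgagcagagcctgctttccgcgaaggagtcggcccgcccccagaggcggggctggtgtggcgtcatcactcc
Cox7a1, chr7:30183921-30184143, plus strand: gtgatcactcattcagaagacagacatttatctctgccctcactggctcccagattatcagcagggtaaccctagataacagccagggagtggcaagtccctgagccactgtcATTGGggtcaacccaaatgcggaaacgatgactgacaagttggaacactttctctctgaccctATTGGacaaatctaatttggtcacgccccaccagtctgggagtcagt

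The 8 genes with the YY1 letters are shown in short because none of them passed the test in either genotype with all 8 libraries, and the 7 with the NRF1 core because the regulator itself changed (below). Capitals mark the searched letters, with up to 10 bases on each side, on the gene's strand. The YY1 letters came first.
Atp5j, chr16:84835046-84835074, minus strand: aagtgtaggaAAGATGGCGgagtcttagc
Atp5j2, chr5:145191500-145191528, minus strand: ccaggacttcAAGATGGCGtcactcggtg
Atp5sl, chr7:25619430-25619458, plus strand: gttacctggcAAGATGGCGgcgcccagag
Ndufa9, chr6:126849097-126849125, minus strand: attgtgggagAAGATGGCGgccgccgtcc
Ndufc1, chr3:51408915-51408943, minus strand: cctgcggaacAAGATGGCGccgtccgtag
Ndufs4, chr13:114388045-114388069, minus strand: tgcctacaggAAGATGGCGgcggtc
Ndufs6, chr13:73328433-73328459, minus strand: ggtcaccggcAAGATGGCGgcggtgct
Ndufs7, chr10:80249463-80249491, plus strand: ggccgaggccAAGATGGCGgcgctggcgg
The NRF1 core followed.
Atp5g2, chr15:102671070-102671099, minus strand: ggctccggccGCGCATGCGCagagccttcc
Atp5k, chr5:108434430-108434459, minus strand: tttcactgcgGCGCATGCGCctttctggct
Cox6a1, chr5:115349101-115349130, minus strand: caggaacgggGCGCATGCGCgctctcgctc
Ndufa11, chr17:56717692-56717721, plus strand: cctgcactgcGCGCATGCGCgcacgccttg
Ndufaf4, chr4:24897960-24897989, plus strand: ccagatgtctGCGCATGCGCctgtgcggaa
Ndufaf5, chr2:140170652-140170681, plus strand: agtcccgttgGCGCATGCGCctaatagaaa
Uqcrc1, chr9:108936668-108936697, plus strand: actccgctctGCGCATGCGCagcgcggctc

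Libraries held 13020492 to 15613216 estimated counts. Prdx6 was at 283 and 297 CPM (counts per 1000000 library counts, scaled by TMM) in parental DMSO and at 79.2 and 86.6 CPM in KD DMSO, and fell by 1.81 ± 0.11 on the log2 scale (SE; edgeR adjusted p = 1.28e-05), so the labels held. Of 13 squamous keratinocyte markers 6 were under 1 CPM in every library, Krt5 among them, and in the DMSO libraries Krt14 was at most 0.222 CPM and Trp63 at 0. Their summed level with DMSO was 378 to 524 CPM, mostly from Itga6 at 264 to 391 CPM, Itgb4 at 69.5 to 98.0 CPM and Jup at 26.9 to 30.4 CPM. Of 5 simple epithelium markers, Krt8 lay at 1908 to 2267 CPM and Krt18 at 94.8 to 130 CPM with DMSO. The others were low with DMSO, Krt19 and Epcam at 0 and Cdh1 at most 0.222 CPM. Of 6 fibroblast markers, the collagen gene Col1a1 lay at 1177 to 1675 CPM with DMSO, and 1, Lum, was under 1 CPM in every library. All 6 immune markers were under 1 CPM in every library. Rn45s, the ribosomal RNA precursor, ranged from 742 to 23915 CPM and was highest in KD largazole replicate 1. That library stood apart for the oxidative phosphorylation genes: 86 of the 87 tested were higher in it than in replicate 2, with a median log2 difference of 0.51. The 798 other tested genes with main transcripts up to 1000 nt differed between those 2 libraries by the same median of 0.51, and the 11543 longer ones by -0.02. Counts of calls with largazole in KD cells, over all members and in the other lists, are therefore also given without each KD largazole library. Counts by complex and of genes shared between genotypes rest on all 8 libraries. Medians by complex, in log2 against the parental DMSO mean, differed between the KD largazole replicates. They were 0.56 and 0.09 in replicates 1 and 2 for complex I, and 0.08 and -0.15 for complex II. For complex III they were 0.62 and 0.15, for complex IV 0.75 and 0.26, and for ATP synthase 0.50 and 0.004.

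With largazole, subunits of all 5 complexes were higher in both genotypes and very few were lower. In parental cells 32 of the 87 genes were higher and 2 lower by edgeR's quasi-likelihood test at an adjusted p under 0.05, and the median log2 fold change was 0.22. In KD cells 31 were higher and 1 lower, with a median of 0.36. The background was wide: of all tested genes, 26.8% were called higher and 22.6% lower in parental cells, and 24.6% higher and 23.1% lower in KD cells. The members called higher were 36.8% and 35.6% of those tested, so they differed from the background more in how few were lower than in how many were higher. The replicates did not overlap in 51 higher and 8 lower members in parental cells (42.2% and 38.9% of all genes) and in 49 and 3 in KD cells (35.6% and 34% of all genes). The largazole responses in the 2 genotypes share no library, and 28 genes were called higher in both, of 32 and of 31. That is 32.2% of the tested members, beside 21% of all tested genes. These counts include Cox7a1 and Ndufa4l2, which passed the filter on low counts through the largazole libraries.

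The calls leaned on single libraries. The shares of all tested genes called in the fits without 1 library or without the length trend are not given. From those counts, here and below, a shift of the members cannot be told from a shift of the whole table. Leaving out 1 library gave 12 to 43 higher genes in parental cells, with 12 without parental DMSO replicate 2, 13 without parental largazole replicate 1 and 15 without parental DMSO replicate 1. In KD cells it gave 11 to 65. Without KD largazole replicate 1 there were 19 higher and 9 lower genes and the median was 0.08, and without its replicate 2 there were 65 and 0 with a median of 0.56. There were 11 without KD DMSO replicate 2 and 20 without KD DMSO replicate 1. The genes are short, with a median main transcript of 908 nt against 2895 nt for all tested genes, and short genes moved with the libraries. Against the parental DMSO mean the members' medians were 0.29 and 0.16 in the parental largazole libraries and 0.56 and 0.10 in the KD largazole libraries, where other genes up to 1000 nt had 0.28, 0.15, 0.52 and 0.08. With each library's trend with transcript length removed, 35 genes were higher and 10 lower in parental cells and 36 and 7 in KD cells, with medians of 0.12 and 0.19.

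**Figure D1:**
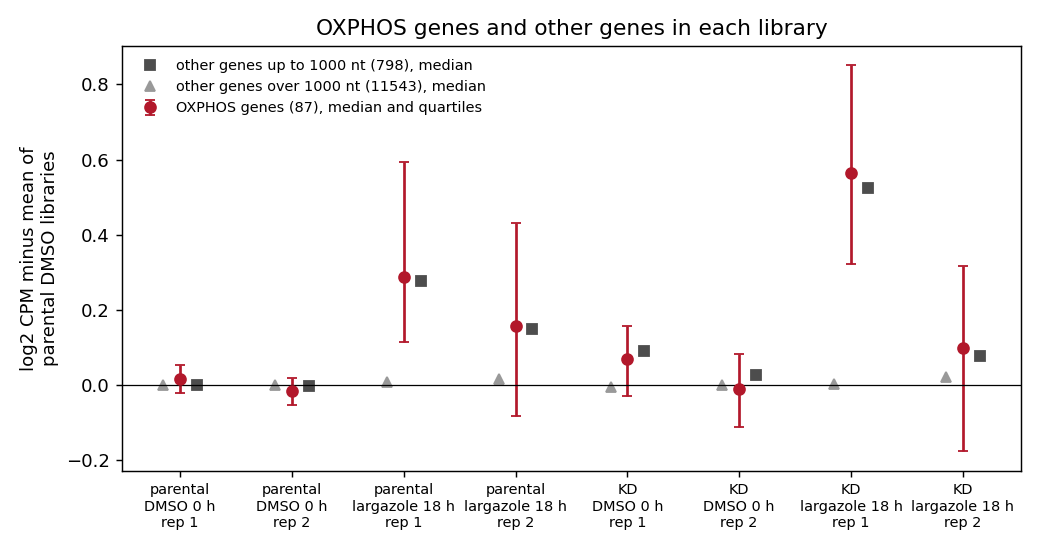
Median log2 CPM of the 87 oxidative phosphorylation genes in each library relative to the mean of the 2 parental DMSO libraries (circles, bars from lower to upper quartile), beside 798 other genes with main transcripts up to 1000 nt (squares) and 11543 longer genes (triangles). KD largazole replicate 1 has the highest median, 0.56, its replicate 2 has 0.10, and the other short genes follow the same course.

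**Figure D2:**
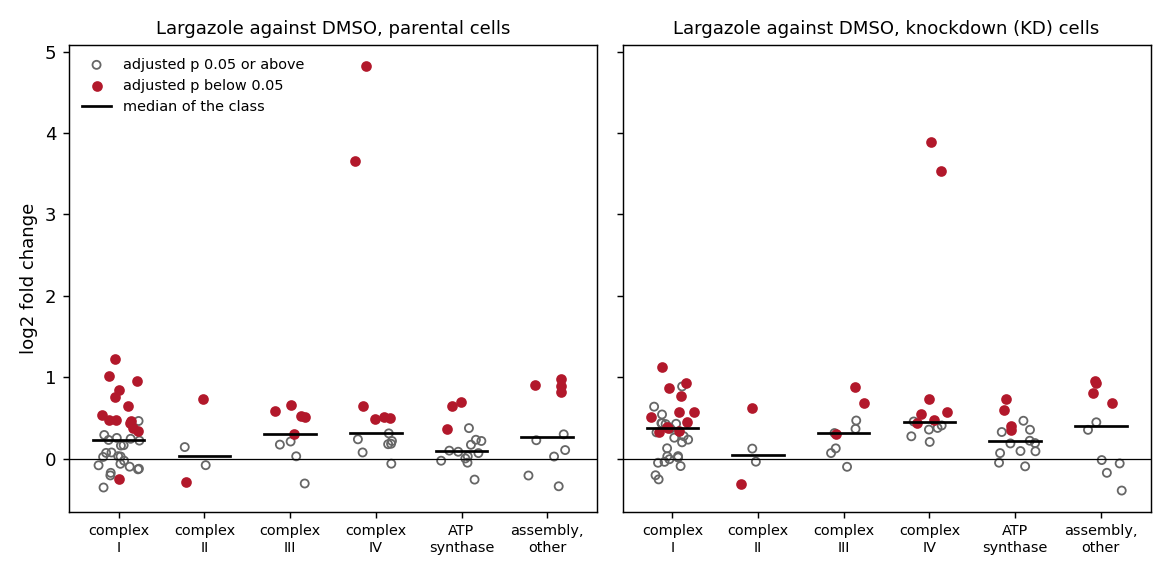
Log2 fold change with largazole of each tested gene by complex, in parental cells (left) and KD cells (right), with filled points for an edgeR adjusted p under 0.05 and a line at the median of the class. The 2 points above 3 in complex IV are Cox7a1 and Ndufa4l2, and filled points below 0 are Ndufs1 and Sdhd.

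Of the members 9 kept both calls without any 1 library and in every alternative in which they were tested, which is 10.3% of those tested, beside 12% of all tested genes. They were Ndufv3, Ndufb6, Ndufb9, Sdhc, Atp5d, Cox7a2l and Ndufaf7, and Cox7a1 and Ndufa4l2, whose admission to the test through the largazole libraries means that their calls add no support. Every other member called higher in both genotypes lost a call in at least 1 fit without 1 library. The 9 are described first within their complexes, and their levels in each library are plotted together.

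**Figure D3:**
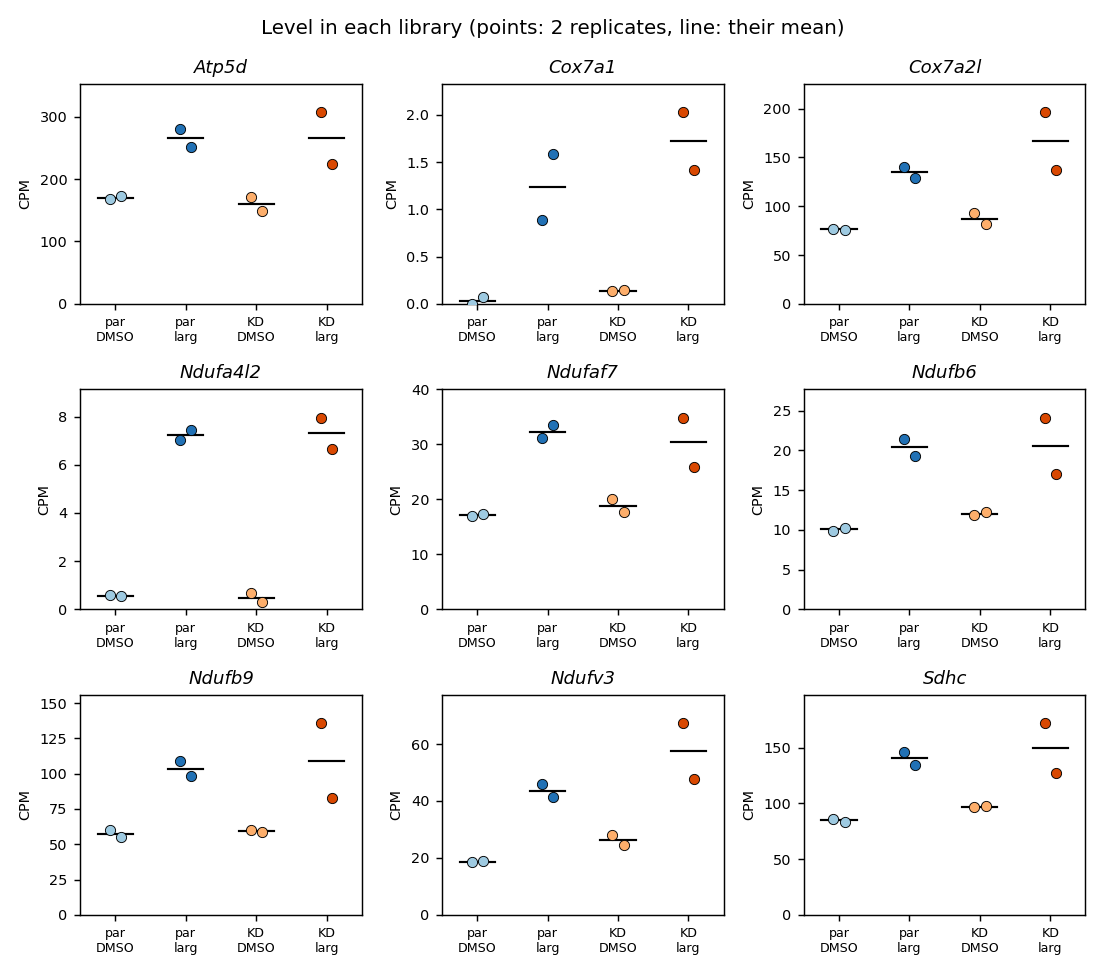
CPM of the 9 genes in each library, with 1 point per replicate and a line at their mean, for parental (par) and KD cells with DMSO (0 h) or largazole (larg, 18 h). In every panel both largazole libraries lie above both DMSO libraries of the same genotype.

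Complex I has 7 nuclear-encoded core subunits, which carry the flavin, the iron-sulfur clusters and part of the quinone site, and a shell of accessory subunits. With largazole 13 of its 36 subunits were higher and 1 lower in parental cells, and 12 higher and 0 lower in KD cells. By class, 8 of 19 accessory subunits of the membrane arm, 2 of 10 accessory subunits of the matrix arm and 3 of the 7 core subunits were higher in parental cells, where 26.8% of all tested genes were. In KD cells, at 24.6% of all tested genes, the counts were 7 of 19, 2 of 10 and 3 of 7. Differences between these classes were not tested.

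Ndufv3, a small accessory subunit beside the NADH-binding site (chr17:31520115-31531331 on GRCm38, plus strand), lay at 18.5 and 18.8 CPM with DMSO and 45.8 and 41.3 with largazole in parental cells, and at 28.0 and 24.5 against 67.3 and 47.8 in KD cells. Both largazole libraries stood above both DMSO libraries in each genotype, and its promoter is the first printed above. It rose by 1.22 ± 0.16 on the log2 scale in parental cells (edgeR adjusted p = 0.000185) and by 1.13 ± 0.16 in KD cells (edgeR adjusted p = 0.000254). Ndufb9 (chr15:58933756-58939488, plus strand) and Ndufb6 (chr4:40270591-40279421, minus strand) are accessory subunits of the membrane arm. Ndufb9 went from 60.1 and 54.9 CPM to 109 and 98.1 in parental cells and from 60.3 and 58.6 to 136 and 82.5 in KD cells, a log2 change of 0.85 ± 0.19 and 0.87 ± 0.19 (edgeR adjusted p = 0.00397 and 0.00344). Exons of Gm49356 on the same strand overlap Ndufb9, so counts could be split between them. Ndufb6 went from 9.91 and 10.2 CPM to 21.5 and 19.3 in parental cells and from 11.9 and 12.2 to 24.1 and 17.0 in KD cells, a log2 change of 1.02 ± 0.18 and 0.77 ± 0.17 (edgeR adjusted p = 0.000994 and 0.0049). Smim27 overlaps it on the opposite strand.

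Among the core subunits, the pair that takes electrons from NADH rose together: Ndufv1, which binds the flavin, and its partner Ndufv2. In neither genotype did their calls hold in every fit that left out a library. Ndufv1 was at 73.6 and 79.1 CPM in parental DMSO and 111 and 101 with largazole, and at 85.3 and 78.5 against 119 and 94.1 in KD cells (log2 0.47 ± 0.12 and 0.38 ± 0.12, edgeR adjusted p = 0.00739 and 0.0227). Ndufv2 was at 56.9 and 53.6 against 74.4 and 69.1 CPM in parental cells and at 61.2 and 60.5 against 101 and 72.6 in KD cells (log2 0.38 ± 0.14 and 0.51 ± 0.14, edgeR adjusted p = 0.0454 and 0.012).

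Ndufs1, Ndufs3, Ndufs7 and Ndufs8 were not called higher. Ndufs1, the large iron-sulfur subunit next to the flavin, fell in parental cells, from 119 and 113 to 96.3 and 99.4 CPM, by 0.25 ± 0.08 on the log2 scale (edgeR adjusted p = 0.0215). In KD cells it was at 112 and 117 CPM with DMSO and 112 and 110 with largazole (log2 -0.05 ± 0.08, edgeR adjusted p = 0.636). The difference between these 2 responses did not pass the test, and the parental call was lost in 4 of the 8 fits that left out a library. Ndufs3, Ndufs7 and Ndufs8, iron-sulfur or scaffold core subunits on the way to quinone, had log2 changes of -0.35 ± 0.16, -0.13 ± 0.16 and -0.17 ± 0.18 in parental cells and -0.04 ± 0.16, -0.09 ± 0.16 and -0.25 ± 0.18 in KD cells, and none passed. With the length trend removed all 3 were called lower in parental cells, and Ndufs7 and Ndufs8 in KD cells.

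Accessory subunits of complex I that were also higher in both genotypes were Ndufa1, Ndufa7, Ndufa10, Ndufa11 and Ndufb10. Their log2 changes ran from 0.44 to 0.76 in parental cells and from 0.33 to 0.93 in KD cells. Ndufa10 lay at 61.5 and 61.9 CPM against 83.8 and 83.3 in parental cells and 66.7 and 58.7 against 84.9 and 73.0 in KD cells. Ndufb4 and Ndufs5 passed in parental cells, and Ndufc2 in KD cells. Ndufs5 varied widely, at 8.28 and 11.7 CPM in parental DMSO and 25.3 and 13.6 with largazole.

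Complex II is succinate dehydrogenase: Sdha carries the flavin, Sdhb the iron-sulfur clusters, and Sdhc and Sdhd anchor the enzyme in the membrane and form the quinone site with Sdhb. The 2 anchors moved in opposite directions. Sdhc (chr1:171127165-171150603, minus strand) was at 86.4 and 83.0 CPM with DMSO and 146 and 135 with largazole in parental cells, and at 96.7 and 97.2 against 172 and 127 in KD cells. It rose by 0.73 ± 0.13 and 0.62 ± 0.12 on the log2 scale in parental and KD cells (edgeR adjusted p = 0.000951 and 0.00241), with no overlap of libraries. Sdhd (chr9:50596357-50603812, minus strand) was at 91.8 and 94.7 CPM with DMSO and 80.5 and 73.0 with largazole in parental cells, and at 99.4 and 94.7 against 86.5 and 70.8 in KD cells. It fell by 0.28 ± 0.11 and 0.30 ± 0.11 (edgeR adjusted p = 0.0494 and 0.0372), again with no overlap, but each call was lost in 6 of the 8 fits without 1 library. With the length trend removed Sdhd had log2 changes of -0.38 and -0.41, with edgeR adjusted p of 0.000222 and 0.000125.

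Neither catalytic subunit passed. Sdha lay at 205 and 199 CPM against 224 and 222 in parental cells, and at 183 and 182 against 201 and 198 in KD cells, a log2 change of 0.14 ± 0.07 and 0.13 ± 0.07 (edgeR adjusted p = 0.1 and 0.153). Its libraries did not overlap in either genotype. With the length trend removed it was called higher in both. Sdhb lay at 97.0 and 91.8 against 91.7 and 87.3 CPM in parental cells and at 98.8 and 89.4 against 106 and 78.2 in KD cells, and its KD largazole libraries spanned those with DMSO.

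**Figure D4:**
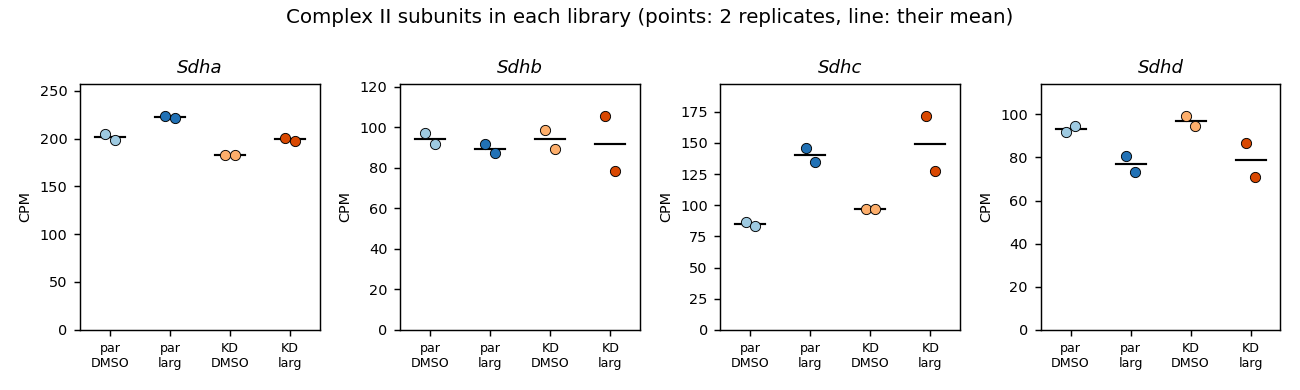
CPM of the 4 complex II subunits in each library, with 1 point per replicate and a line at their mean, for parental (par) and KD cells with DMSO (0 h) or largazole (larg, 18 h). Sdhc is higher and Sdhd lower in both largazole libraries of each genotype, and the KD largazole replicates lie far apart for Sdhb and Sdhc.

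In complex III 5 of 9 subunits were higher in parental cells and 3 in KD cells, with 0 lower in either. Of all tested genes 26.8% and 24.6% were called higher, and 22.6% and 23.1% lower. Uqcrc1, Uqcrh and Uqcr11 passed in both. Uqcrh, the acidic hinge protein that helps cytochrome c dock, went from 54.6 and 50.1 to 89.5 and 75.8 CPM in parental cells and from 54.8 and 54.7 to 104 and 72.2 in KD cells (log2 0.66 ± 0.16 and 0.68 ± 0.16, edgeR adjusted p = 0.00601 and 0.00507). Uqcrfs1, the Rieske iron-sulfur protein, went from 67.1 and 62.5 to 98.3 and 87.4 CPM in parental cells (log2 0.52 ± 0.12, edgeR adjusted p = 0.0053). In KD cells it was at 72.3 and 69.8 against 99.4 and 77.7 CPM (log2 0.32 ± 0.12, edgeR adjusted p = 0.052). Cyc1, the cytochrome c1 subunit, was at 157 and 154 against 166 and 151 CPM in parental cells and 156 and 146 against 183 and 134 CPM in KD cells. In each genotype its largazole replicates lay on either side of both DMSO replicates. Its log2 changes were 0.03 ± 0.13 and 0.07 ± 0.13, and neither passed. Of the pair of core proteins, Uqcrc1 rose by 0.31 ± 0.10 and 0.30 ± 0.10 (edgeR adjusted p = 0.0286 and 0.0321), and Uqcrc2 had 0.17 ± 0.08 and 0.13 ± 0.08 and did not pass.

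In complex IV 6 of the 13 tested subunits were higher in parental cells and 7 in KD cells, with 0 lower in either. These counts include Cox7a1 and Ndufa4l2, which passed the filter on low counts through the largazole libraries. Of the 11 ubiquitous subunits 4 were higher in parental cells and 5 in KD cells. Among all tested genes 26.8% and 24.6% were called higher, and 22.6% and 23.1% lower. Cox4i1 and Cox5a, which associate early in assembly with the catalytic core made in mitochondria, rose together. In neither genotype did the calls of Cox4i1, Cox5a and Cox6a1 hold in every fit that left out a library. Cox4i1 was at 168 and 166 CPM against 252 and 219 in parental cells and at 174 and 177 against 281 and 207 in KD cells (log2 0.50 ± 0.13 and 0.48 ± 0.13, edgeR adjusted p = 0.00891 and 0.0117). Cox5a rose by 0.51 ± 0.13 and 0.58 ± 0.14 (edgeR adjusted p = 0.0103 and 0.00558). Cox5b, which binds zinc, had 0.18 ± 0.16 and 0.38 ± 0.17 and did not pass. Cox6a1 rose by 0.65 ± 0.20 and 0.73 ± 0.20 (edgeR adjusted p = 0.0221 and 0.0129), from 96.1 and 102 to 170 and 141 CPM in parental cells and from 110 and 95.6 to 215 and 127 CPM in KD cells.

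Several complex IV subunits exist as a ubiquitous and a tissue-restricted isoform, and 2 of the restricted ones were near 0 with DMSO and higher with largazole. Both passed the filter on low counts through the largazole libraries, where they were high, so their values are given as a description, with no test. Ndufa4l2 (chr10:127514967-127517154, plus strand), a paralog of the complex IV subunit Ndufa4 known as a target of hypoxia-inducible factor, was at 0.592 and 0.540 CPM with DMSO and 7.01 and 7.45 with largazole in parental cells, and at 0.659 and 0.295 against 7.95 and 6.68 in KD cells. Its counts went from 16 to 216 in parental cells, a ratio of 12.8 (exact 95% interval 7.71 to 22.8), and from 14 to 201 in KD cells, a ratio of 14.9 (8.69 to 27.8). The intervals cover counting error only. The fitted log2 changes were 3.66 ± 0.32 and 3.89 ± 0.33. Shmt2, whose exons overlap it on the opposite strand, fell with largazole, by 1.26 and 1.54 on the log2 scale.

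Ndufa4 itself rose by 0.49 ± 0.15 and 0.55 ± 0.15 (edgeR adjusted p = 0.0192 and 0.0112), from 27.4 and 28.0 to 41.2 and 36.4 CPM in parental cells and from 30.1 and 28.3 to 49.4 and 36.1 CPM in KD cells. The share of Ndufa4l2 in the counts of both genes was 1.03% to 2.14% in the 4 DMSO libraries and 13.9% to 17.0% in the 4 largazole libraries. The exact 95% intervals of the DMSO libraries reached 4.13% at most, and those of the largazole libraries began at 11.4% or above.

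Cox7a1 (chr7:30184144-30186078, plus strand), the isoform of heart, skeletal muscle and brown fat, had 0 and 1 counts in the parental DMSO libraries and 37 over both parental largazole libraries, a ratio of 35.1 (exact 95% interval 5.93 to 1424). In KD cells it had 4 counts with DMSO and 47 with largazole, a ratio of 12.2 (4.47 to 46.7). It reached 0.885 and 1.58 CPM in parental largazole and 2.03 and 1.42 in KD largazole, still 1.35% to 2.64% of the counts of Cox7a1 and the ubiquitous Cox7a2 together. Of 6 muscle markers 5 were under 1 CPM in every library, and Tnnt2 rose by 1.78 ± 0.29 and 2.64 ± 0.32. The summed level of the 6 was 0.884 to 1.63 CPM in the DMSO libraries and 4.52 to 6.62 CPM in the largazole libraries, and its part in the rise of Cox7a1 was not tested. Cox7a2 had 0.24 ± 0.16 and 0.44 ± 0.16, and passed in KD cells (edgeR adjusted p = 0.0403), a call lost in 7 of 8 fits without 1 library. Cox4i2, Cox7b2, Cox8b and Cox8c had 0 counts throughout, and a count of 0 allows up to 0.222 CPM in a parental DMSO library. Cox6b2 had counts in the KD largazole libraries, 4 and 1, and 0 elsewhere.

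Of the 15 ATP synthase subunits 3 were higher in parental cells and 4 in KD cells, and 0 were lower. The higher counts lie near the 26.8% and 24.6% of all tested genes called higher. Atp5d (chr10:80138632-80145818, plus strand), the delta subunit of the rotor's central stalk, was at 168 and 173 CPM with DMSO and 281 and 252 with largazole in parental cells, and at 171 and 148 against 307 and 225 in KD cells. Its libraries did not overlap, with log2 changes of 0.64 ± 0.13 and 0.74 ± 0.14 (edgeR adjusted p = 0.00301 and 0.00147). Cbarp overlaps it on the opposite strand. The alpha and beta subunits, the most abundant members, moved little. Atp5a1 was at 772 and 779 against 796 and 789 CPM in parental cells and at 781 and 760 against 842 and 776 CPM in KD cells (log2 0.03 ± 0.07 and 0.07 ± 0.07). Atp5b was at 1392 and 1382 against 1603 and 1524 CPM in parental cells and at 1330 and 1291 against 1596 and 1401 CPM in KD cells (log2 0.17 ± 0.08 and 0.19 ± 0.08). Neither passed, though the Atp5b libraries did not overlap in either genotype.

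The gamma subunit Atp5c1 had 0.23 ± 0.12 and 0.35 ± 0.12 and passed in KD cells (edgeR adjusted p = 0.0411), and the epsilon subunit Atp5e had 0.10 ± 0.18 and 0.36 ± 0.18 and did not pass. In the peripheral stalk, which holds the catalytic head still, Atp5f1 rose by 0.37 ± 0.10 and 0.40 ± 0.10 (edgeR adjusted p = 0.0133 and 0.00896) and Atp5h by 0.69 ± 0.18 and 0.60 ± 0.18 (edgeR adjusted p = 0.00865 and 0.0177). Atp5h has 3 annotated near-identical copies, and its counts are therefore uncertain. The 3 genes Atp5g1, Atp5g2 and Atp5g3 encode the same c-ring protein, and none passed. Their log2 changes were -0.05 ± 0.15, -0.25 ± 0.13 and 0.22 ± 0.14 in parental cells and -0.05 ± 0.15, -0.09 ± 0.13 and 0.33 ± 0.14 in KD cells. Of the 93 genes 22 have an annotated near-identical copy, up to 8 for Atp5l.

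Of the 10 assembly and other factors 4 were higher in each genotype and 0 lower. In parental and KD cells 26.8% and 24.6% of all tested genes were called higher, and 22.6% and 23.1% lower. Cox7a2l (chr17:83501918-83517330, minus strand), known as SCAF1, which joins complexes III and IV into supercomplexes, was at 76.6 and 75.8 CPM with DMSO and 140 and 129 with largazole in parental cells, and at 93.1 and 81.7 against 196 and 137 in KD cells. It rose by 0.82 ± 0.15 and 0.93 ± 0.15 (edgeR adjusted p = 0.00125 and 0.000591), and has 1 annotated near-identical copy. Ndufaf7 (chr17:78937136-78948052, plus strand), an arginine methyltransferase of early complex I assembly, was at 17.0 and 17.4 CPM with DMSO and 31.2 and 33.5 with largazole in parental cells, and at 20.02 and 17.8 against 34.8 and 25.9 in KD cells (log2 0.91 ± 0.15 and 0.68 ± 0.15, edgeR adjusted p = 0.000784 and 0.00432). Ndufaf2, a late complex I assembly factor, rose by 0.89 ± 0.21 and 0.81 ± 0.21 (edgeR adjusted p = 0.00566 and 0.0106). Atp5s, named as a coupling factor of ATP synthase, went from 3.92 and 3.24 to 7.15 and 6.92 CPM in parental cells and from 4.54 and 3.32 to 7.95 and 7.42 CPM in KD cells (log2 0.98 ± 0.22 and 0.96 ± 0.21, edgeR adjusted p = 0.00431 and 0.00452). Ndufaf1, Ndufaf3, Ndufaf4, Ndufaf5, Ndufaf6 and Atp5sl did not pass in either genotype, with log2 changes from -0.34 to 0.30 in parental cells and from -0.39 to 0.45 in KD cells.

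The promoter letters printed above divided the members as follows, a description made after their values were seen. Of the 8 genes with the YY1 letters 0 were called with largazole in either genotype, with median log2 changes of -0.04 in parental cells and 0.04 in KD cells. Of the 65 tested genes with a promoter but without those letters 27 were higher and 1 lower in parental cells. In KD cells 26 were higher and 1 lower, and the medians were 0.26 and 0.38. These 65, and the 66 below, include Cox7a1, which passed the filter on low counts through the largazole libraries. Of all tested genes 26.8% were called higher and 22.6% lower in parental cells, and 24.6% and 23.1% in KD cells. Of the 7 genes with the NRF1 core 3 were higher in each genotype, with medians of 0.23 and 0.30, beside 0.23 and 0.38 for the 66 without it. No test was made of these splits. The YY1 count rested on both KD largazole libraries: without replicate 1 it was 0 higher and 2 lower of 8 in KD cells, with a median of -0.15 beside 0.11 for the 65 others, and without replicate 2 it was 4 higher and 0 lower, with 0.27 beside 0.62. With the length trend removed it was 0 higher and 2 lower in each genotype.

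The knockdown of PRDX6 alone changed no oxidative phosphorylation gene past the threshold in the fit of all 8 libraries. Between KD and parental cells with DMSO 0 of 87 were higher and 0 lower, while 7.11% of all tested genes were called higher and 4.01% lower. Replicates did not overlap for 26 higher and 16 lower members, beside 30.5% and 30.3% of all genes. At an unadjusted p under 0.05 there was 1 member of 87, beside 24.9% of all tested genes, and DESeq2 called 0. All 4 groups shared 1 estimate of the spread for each gene. The KD largazole replicates, with a median log2 difference of 0.51 in the members, therefore also entered the p-values of this comparison. A fit of only the DMSO libraries, which leaves the KD largazole replicates out, called 3 members higher. The share of all tested genes called in that fit is not given. The median log2 change was 0.03, and the 95% interval of the change lay within 1.5-fold for 64 of the 87 genes and within 2-fold for 84. Summed over all 93 genes, the level was 7018 ± 72.6 CPM in parental DMSO and 7017 ± 227 CPM in KD DMSO (SD, n = 2). The smallest adjusted p belonged to Ndufv3, named here after its values were seen: 18.5 and 18.8 CPM in parental DMSO against 28.0 and 24.5 in KD DMSO, without overlap (log2 0.49 ± 0.17, edgeR adjusted p = 0.0889). With the length trend removed it was called, at 0.44 (edgeR adjusted p = 0.0121). Sdha, at 205 and 199 against 183 and 182 CPM, had -0.14 ± 0.07 (edgeR adjusted p = 0.225).

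Under largazole the comparison of KD with parental cells also gave 0 higher and 0 lower genes, with 8.12% and 9.67% of all tested genes called by the adjusted p. At an unadjusted p under 0.05 there were 6 members, beside 31.3% of all tested genes. Replicates did not overlap for 6 higher and 3 lower members, beside 25.6% and 27.8% of all genes. DESeq2 again called 0. The median log2 change was 0.12, and the interval lay within 1.5-fold for 56 of the 87 genes. The counts of calls depended on which KD largazole library was kept: without replicate 1 there were 0 higher and 10 lower genes with a median of -0.17, and without replicate 2 there were 48 higher and 0 lower with a median of 0.33. Summed levels show the same split, at 9702 and 7449 CPM in the 2 KD largazole libraries against 8562 and 7873 CPM in the parental ones. The share of all tested genes called without either KD largazole library is not given here.

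The largazole response itself was compared between the genotypes by an interaction term, and 0 of the 87 genes passed in either direction, and 0 had an unadjusted p under 0.05, beside 8.7% of all tested genes. Of all tested genes 0.0399% and 0.192% passed. The median difference (KD response minus parental response) was 0.08 on the log2 scale, and the 95% interval lay within 1.5-fold for 35 genes and within 2-fold for 79, so smaller differences were not detectable for most members. DESeq2 called 0. Without KD largazole replicate 2 the median was 0.31. The 2 KD largazole libraries differed by a median log2 of 0.51 in the members and in other genes up to 1000 nt.

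**Figure D5:**
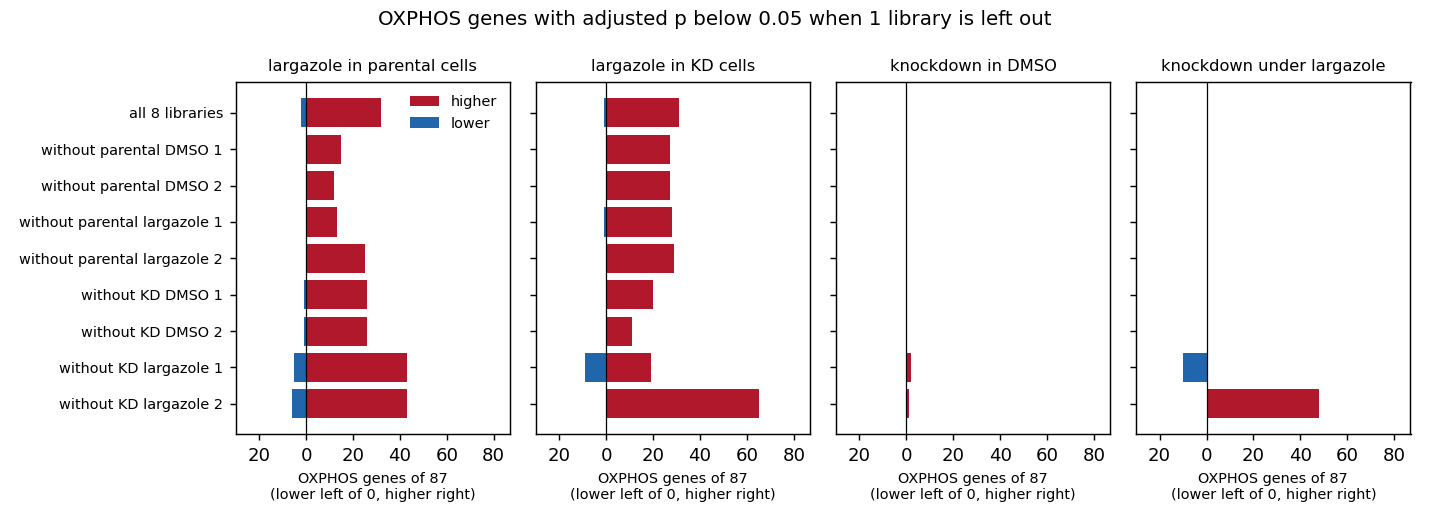
Number of the 87 genes with an edgeR adjusted p under 0.05 in each comparison, higher to the right of 0 and lower to the left, with all 8 libraries and with each library left out in turn. The share of all tested genes called in each fit is not shown. Leaving out either KD largazole library turns the comparison of KD with parental cells under largazole from 0 calls to 10 lower or 48 higher genes.

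Levels differed by complex. Per kilobase of main transcript in parental DMSO, the median over genes was 113 CPM per kb for ATP synthase, 78.9 for complex IV, 77.8 for complex III, 72.6 for complex II and 37.0 for complex I, and 7.45 for the assembly and other factors. These medians rest on 80 genes, since 7 with main transcripts of uncertain length were left out. Within each complex the range was wide, from 17.1 to 724 CPM per kb in ATP synthase and from 9.50 to 99.3 in complex I. Among the 80 genes Atp5b, the catalytic subunit, headed the order at 724 ± 3.48 CPM per kb (SD, n = 2). Atp5a1 at 314 ± 1.83 and Cox4i1 at 221 ± 1.88 followed. Atp5g2, among the 7 left out, had 358 ± 2.71 by its median transcript length. With largazole Cox4i1 reached 312 CPM per kb in parental cells beside 321 for Atp5a1. As a share of all counts the 93 genes made up 0.671% to 0.698% of the DMSO libraries and 0.774% to 0.956% of the largazole libraries.

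Lists of other mitochondrial genes held higher and lower genes side by side with largazole. Among 44 tested assembly factors outside the name rule 13 were higher and 2 lower in parental cells, and 13 and 5 in KD cells, against the 26.8% and 22.6% and the 24.6% and 23.1% given above for all genes. Lyrm7, which escorts the Rieske protein, had 1.63 ± 0.33 and 0.99 ± 0.33, and Sdhaf3, which helps mature Sdhb, had 1.36 ± 0.25 and 1.37 ± 0.28, and all 4 of these changes passed. Lrpprc, which keeps mitochondrial messenger RNA stable, fell by 0.38 ± 0.10 and 0.44 ± 0.10. Without KD largazole replicate 1 the KD counts were 8 and 4, and without its replicate 2 they were 22 and 3, with Lyrm7 no longer passing in KD cells (0.81, edgeR adjusted p = 0.139).

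Of 18 tested genes for other electron carriers and quinone synthesis 5 were higher and 1 lower in parental cells and 4 and 3 in KD cells. For this list and those below, the background with largazole was 26.8% higher and 22.6% lower in parental cells. In KD cells it was 24.6% and 23.1% of all tested genes. Sqrdl, which feeds electrons from sulfide to quinone, went from 39.8 and 38.9 to 71.3 and 75.8 CPM in parental cells and from 60.4 and 55.0 to 101 and 82.9 CPM in KD cells. It rose by 0.90 ± 0.11 and 0.67 ± 0.11 (edgeR adjusted p = 0.00013 and 0.000751). It was also higher in KD than in parental cells with DMSO, by 0.55 ± 0.11 (edgeR adjusted p = 0.0125). Dhodh, which feeds quinone from pyrimidine synthesis, fell by 0.57 ± 0.17 and 0.74 ± 0.18. In the TCA cycle list 7 of 20 were higher and 5 lower in parental cells and 7 and 2 in KD cells. Its succinyl-CoA ligase subunits went opposite ways: Suclg1 rose by 0.62 ± 0.10 and 0.54 ± 0.10, and Suclg2 fell by 0.68 ± 0.08 and 0.63 ± 0.08.

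Of the 17 tested transcriptional regulators of mitochondrial genes 2 were higher and 4 lower in each genotype. Nrf1 itself, the factor of the core letters printed above, fell by 0.31 ± 0.09 in parental cells and by 0.27 ± 0.10 in KD cells (edgeR adjusted p = 0.0216 and 0.0412), from 49.99 and 50.5 to 41.2 and 40.005 CPM and from 41.5 and 45.1 to 36.9 and 35.0 CPM. The KD call was lost without KD largazole replicate 2 (-0.23, edgeR adjusted p = 0.0776). Gabpb2, a partner of GABPA at ETS sites, fell by 0.84 ± 0.16 and 0.70 ± 0.16, and Tfb1m, which methylates mitochondrial ribosomal RNA, rose by 1.09 ± 0.23 and 0.68 ± 0.23. All 4 of these changes passed.

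Ucp2, an inner-membrane carrier of the uncoupling protein family, went from 2.14 and 2.63 to 27.8 and 23.7 CPM in parental cells and from 1.32 and 1.92 to 33.6 and 32.8 CPM in KD cells. That is a rise of 3.42 ± 0.19 and 4.36 ± 0.20 on the log2 scale (edgeR adjusted p = 9.01e-07 and 4.45e-07). In that list 4 of 17 were higher and 2 lower in parental cells and 5 and 2 in KD cells, Slc25a5, an ADP/ATP carrier, falling in both by 0.53 ± 0.10 and 0.48 ± 0.10. Among 14 chaperones and proteases 2 were higher and 2 lower in parental cells and 1 and 3 in KD cells. The matrix chaperonin Hspd1 went from 953 and 918 to 541 and 544 CPM in parental cells and from 758 and 740 to 423 and 428 CPM in KD cells, with no overlap, and fell by 0.79 ± 0.07 and 0.82 ± 0.07 (edgeR adjusted p = 1.03e-05 and 7.67e-06). It was also lower in KD than in parental cells with DMSO, by 0.32 ± 0.07 on the log2 scale (edgeR adjusted p = 0.0124).

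Among 9 tested hypoxia-linked genes 1 differed between the genotypes in its largazole response: Bnip3, a mitophagy receptor, went from 97.4 and 90.1 to 74.1 and 66.4 CPM in parental cells and from 156 and 159 to 248 and 214 CPM in KD cells. The difference was 0.97 ± 0.13 on the log2 scale (edgeR adjusted p = 0.0263), and 0.86 and 1.08 without KD largazole replicates 1 and 2. In this list 2 genes were higher and 3 lower in parental cells and 3 and 2 in KD cells with largazole. The higher counts here, and those without a KD largazole library below, include Ndufa4l2. It passed the filter on low counts through the largazole libraries, so its calls add no support. Under largazole 5 were higher and 1 lower in KD than in parental cells, beside 8.12% and 9.67% of all tested genes. Ndufa4l2, which belongs to this list as well as to the members, did not differ between the genotypes past the threshold, with 0.01 ± 0.22 between KD and parental cells under largazole. Without KD largazole replicate 1 and replicate 2 in turn, the KD counts of higher and lower genes were 4 and 5, then 7 and 3, for the electron carriers, 8 and 3, then 6 and 1, for the TCA cycle, and 1 and 5 both times for the regulators. They were 5 and 6, then 8 and 3, for the carriers, 0 and 6, then 2 and 4, for the chaperones and proteases, and 4 and 3, then 4 and 2, for the hypoxia-linked genes.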

How the data were processed

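The authors deposited 1 file per library with values per gene symbol that were read here as estimated counts, not normalized by the authors, because they are never negative, are not all whole and sum to different totals. The labels' protocols give polyA selection and directional libraries, and the submitters' processing notes name mm10. No aligner, counter or strand setting is given in the sources, so reads of overlapping genes on opposite strands may not be told apart. Counts were rounded to whole numbers. edgeR 4.0.16 was used for a two-sided quasi-likelihood F test: filterByExpr kept genes (minimum count 10, minimum total 15), TMM set the scaling, all 8 libraries entered 1 fit of 4 group means, and p-values were adjusted by Benjamini-Hochberg over 12517 genes with a threshold of 0.05. The SE was taken as log2 fold change over the square root of F. Transcript lengths, exon overlaps and near-identical copies (blastn 2.17.0, at least 95% identity over 0.8 of the coding sequence) came from GENCODE M21 on GRCm38, the assembly of mm10. DESeq2 1.42.0 and limma-voom 3.58.1 were alternatives, as were other scalings and filters, removal of Rn45s, removal of trends with transcript length and GC content (lowess, span 0.3), a replicate block, and leaving out each of the 8 libraries, which leaves 1 library in its group that is assumed to vary like the others. The test was run on simulated data with known changes first.

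The genes named with values are, in each comparison, the most raised and lowered passing members, the catalytic core of each complex, isoform pairs and assembly factors, and up to 4 passing genes of each other list. For length not all of these are described, and 1 gene is not reported here. The members, the lists and the tests were chosen with earlier results of these data known. Replicate numbers did not pair the libraries, since the labels state no shared batch.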

Additional observations from a re-analysis of the deposited data

How the results depend on the processing

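In parental cells with largazole the number of higher genes kept within 1.5 times of 32 in all 13 alternatives other than leaving out a library, and ranged from 12 to 43 without 1 library. The number of lower genes, 2, became 0 with upper-quartile scaling and with library totals, 4 with no filter, 1 with the stricter filter and with DESeq2, 6 with only the libraries compared, 5 with the replicate block, 10 with the length trend removed and with the length and GC trends removed, 12 with the length trend removed and the replicate block, and 0 to 6 without 1 library. In KD cells the higher genes, 31, ranged from 11 to 65 without 1 library. The lower genes, 1, became 0 with upper-quartile scaling, library totals, the stricter filter and only the libraries compared, 7 with each of the 3 length settings, and 0 to 9 without 1 library. For the knockdown in DMSO the 0 higher genes became 1 with no filter, with the replicate block and with each length setting, 3 with only the libraries compared and 0 to 2 without 1 library. The 0 lower ones became 2 with the length trend removed and the replicate block and 1 with the length and GC trends removed. For the knockdown under largazole the 0 higher genes became 2 with no filter and with the replicate block, 4 with the length trend and with both trends removed, 6 with the length trend removed and the replicate block, and 0 to 48 without 1 library. The 0 lower ones became 1 with the replicate block, 2 with each length setting, and 0 to 10 without 1 library. For the difference between responses the 0 higher genes became 0 to 7 without 1 library. The replicate block, in which libraries share only a number, moved the higher genes to 37 in parental cells and 45 in KD cells. The correlations of same-numbered libraries' deviations were 0.08, 0.19, 0.01 and 0.20 over the 4 pairs of groups.

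Signs turned with a call in 5 cases. Without KD largazole replicate 1, Ndufab1 and Atp5j2 were lower with largazole in KD cells (-0.32 and -0.32, against 0.31 and 0.41 without replicate 2), and Ndufb9 and Cox6a1 were lower in KD cells under largazole (-0.33 and -0.29, against 0.39 and 0.47). Cyc1 was at -0.24 there without replicate 1 and higher, at 0.21, without replicate 2. The cause was not tested. The counts of the other mitochondrial lists without either KD largazole library were added after seeing the data. No scaling moved the median of all genes by more than 0.083. With 2 libraries per group, counting error mattered most for Cox7a1, with 0 to 26 counts in a library.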
